A study of Mus musculus with 6 samples.

Results

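Hmga2, a gene of fetal blood stem cells, was read strongly in both wild-type fractions of adult mouse marrow and read low in E2A-KO progenitors. On the 2 probe sets with the highest levels it lay 6.87-fold and 12.9-fold lower in E2A-KO LMPP than in WT LMPP. Its partners in the fetal programme did not show this pattern: Igf2bp3 was higher in both LMPP groups than in WT LSK FLT3-, Arid3a stayed within its spread, and Sox17 and Lin28b were dim throughout. The set was drawn up as 7 genes by name: Hmga2, Hmga1, Lin28b, Igf2bp2, Igf2bp3, Arid3a and Sox17. A gene entered if a probe set carried its symbol and no other, and 5 of the 7 did, out of 18194 genes in all. Hmga1 and Igf2bp2 matched no probe set by this rule and were not analysed here. Hmga2 was selected on its difference between E2A-KO and WT LMPP on these same arrays, and the other genes were picked by name with results of the arrays known. The differences of Hmga2 are therefore a description without a test, and the calls of the other members describe the fit and support nothing.

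RNA was measured on 6 Affymetrix arrays, with 2 arrays in each of 3 groups. WT LMPP were LIN-SCA1+KIT+FLT3hi cells, the lymphoid-primed multipotent progenitors, sorted from the marrow of adult C57BL/6 mice. E2A-KO LMPP came through the same gate from E2A-KO mice, which were on a C57BL/6 background. WT LSK FLT3- were LIN-SCA1+KIT+FLT3- cells of adult C57BL/6 mice, the fraction that contains the blood stem cells. E2A proteins are the basic helix-loop-helix factors encoded by Tcf3. The labels give neither the E2A allele, the sex nor an exact age, nor do they state that arrays sharing a group were prepared from different animals. The p-values thus rest on array-to-array spread alone, part or all of it possibly technical. There was no E2A-KO LSK FLT3- array, so the genotype was compared in LMPP alone. Per the labels, the cRNA came from 2 rounds of amplification.

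Fetal blood stem cells divide more and give a different range of lymphoid cells than adult ones. A switch made of the RNA-binding protein LIN28B and the let-7 microRNAs accounts for much of that difference in the published work on mouse marrow. LIN28B binds let-7 precursors and blocks their maturation. Mature let-7 pairs through its seed with sites in the messenger RNAs of Hmga2, the Igf2bp genes and Arid3a, and lowers their output. HMGA2 is an AT-hook chromatin protein that supports self-renewal, IGF2BP3 is an RNA-binding protein that stabilises its target messages, ARID3A is a DNA-binding factor that promotes B lymphoid output in the fetus, and SOX17 is a transcription factor that fetal blood stem cells need.

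The let-7 sequences are shown because they define the site that Hmga2, the Igf2bp genes and Arid3a are known to share. In the RefSeq table of GRCm38.p6, 11 mature microRNAs belong to the let-7 family by name (let-7 guide arms and miR-98-5p), and 10 of them share 1 seed, bases 2 to 8. The seed is in capitals, and sequences run 5′ to 3′.
mmu-let-7a-5p: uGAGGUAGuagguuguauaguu
mmu-let-7b-5p: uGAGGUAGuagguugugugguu
mmu-let-7g-5p: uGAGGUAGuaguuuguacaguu
mmu-let-7i-5p: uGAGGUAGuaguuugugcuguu
mmu-let-7j: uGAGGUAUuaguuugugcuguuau
The exception is let-7j, whose seed ends in a different base. Members with the shared seed differ only in the bases after it among the 4 printed here. The arrays read messenger RNAs and not mature microRNAs, so the level of let-7 itself was not measured.

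Each array gave 45101 probe set values, with an array median of 4.01 to 4.04 (log2) in the LMPP groups and 3.90 to 3.91 on the LSK FLT3- arrays. Levels near or below the array median lie in the compressed low range of these arrays, where differences are understated. The upper quartile was 5.78 to 5.82 on the LMPP arrays and 6.13 to 6.15 on the LSK FLT3- arrays. The gap between the 3′ and 5′ control probe sets of Actb was 3.77 to 3.95 on the LMPP arrays and 3.45 to 3.55 on the LSK FLT3- arrays. That of Gapdh overlapped, at 3.09 to 3.35 on the LMPP arrays and 3.25 to 3.44 on the LSK FLT3- arrays. Flt3 averaged 10.80 on the WT LMPP arrays, 10.73 on the E2A-KO arrays and 8.81 on the LSK FLT3- arrays. It was thus higher in the LMPP groups, though above the upper quartile on the LSK FLT3- arrays too. Kit averaged 10.22 on the LSK FLT3- arrays, 8.98 on the WT LMPP arrays and 8.66 on the E2A-KO arrays. Cd34, which the labelled gate does not name, averaged 10.58, 11.04 and 10.99 in that order. Flt3 and Kit were used for the sort and are no finding. Ly6a, which encodes SCA1, was not analysed here. The brightest Tcf3 probe set averaged 6.90 ± 0.05 (SD, n = 2) on the WT LMPP arrays and 6.66 ± 0.19 on the E2A-KO arrays. No source used here places it relative to the targeted region, and it does not check the labels. These are bulk samples, and fewer cells that carry a message cannot be told apart from less message per cell.

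Hmga2 had 4 probe sets, and the gene was represented by 1450780_s_at, which had the highest mean over the 6 arrays, 7.20 against 6.98 for the next. This probe set read 7.82 and 7.73 (log2) in WT LSK FLT3-, 8.39 and 8.21 on the WT LMPP arrays, and 5.58 and 5.46 on the E2A-KO arrays. The 3 groups did not overlap, and the E2A-KO arrays stood apart from all 4 wild-type arrays. The second, 1422851_at, read 8.17 and 8.20 on the LSK FLT3- arrays, 8.21 and 8.22 on the WT LMPP arrays, and 4.32 and 4.75 on the E2A-KO arrays. On it the wild-type fractions were almost level and the E2A-KO arrays were just above the array median. The third, 1450781_at, read 7.13 and 7.29 on the LSK FLT3- arrays, 6.00 and 6.99 on the WT LMPP arrays, and 3.63 and 3.18 on the E2A-KO arrays. Its E2A-KO arrays were below the array median, and its WT LMPP arrays were the most uneven of any Hmga2 pair. The fourth, 1446196_at, was below the array median on all 6 arrays, between 2.85 and 3.94, and its WT LMPP and E2A-KO LMPP arrays did not overlap.

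**Figure D1:**
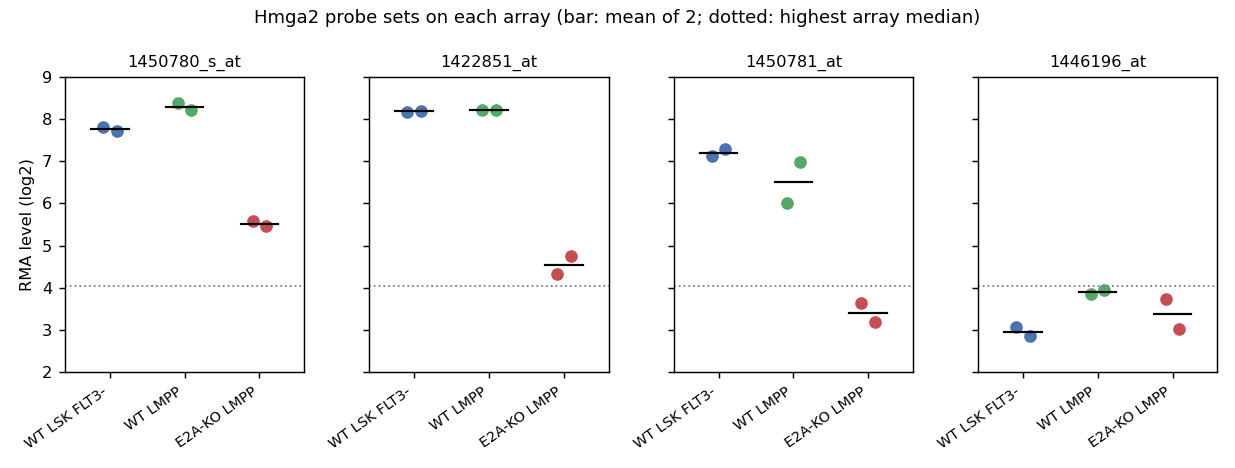
Level of the 4 Hmga2 probe sets (log2 RMA value, vertical axis) on each of the 6 arrays by group; points are arrays, bars the mean of 2 arrays and the dotted line the highest array median, 4.04. On 3 probe sets the E2A-KO LMPP arrays lie below the 4 wild-type arrays, and 1446196_at is under the dotted line everywhere.

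Between E2A-KO and WT LMPP, 1450780_s_at differed by -2.78 (log2, SE 0.13 in the fit over genes), a 6.87-fold lower level. Over all probe sets, 1422851_at differed by -3.68 (SE 0.17), a 12.9-fold lower level, and 1450781_at by -3.10 (SE 0.29), 8.55-fold lower. The dim 1446196_at differed by -0.53 (SE 0.22). The 3 probe sets that read Hmga2 above the array median in wild-type cells thus gave the same direction. The suffix _s_at marks a probe set whose probes match more than 1 transcript, and 1450780_s_at was the one of the 3 with the smallest difference. For the gene, the difference stayed between -2.87 and -2.52 over 14 alternative settings. It was the seventh lowest difference of 18194 genes, which is the value that chose it.

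Markers of mature neutrophils moved with Hmga2. Of 9 measured genes of that list, 7 fell and 0 rose in E2A-KO LMPP (limma), beside 0.995% lower and 0.379% higher of all genes. At an unadjusted p under 0.05, 7 were lower and 0 higher, and the median difference was -1.72. The other 2 were near the array median: Mmp8 averaged 4.22 on the WT LMPP arrays and 4.16 on the E2A-KO arrays, and Mmp9 4.20 and 4.21. The summed linear level of the 9 was 1634 to 1750 on the LSK FLT3- arrays, 2976 to 2979 on the WT LMPP arrays and 583 to 664 on the E2A-KO arrays. None was below the array median on all 6 arrays. Endothelial markers summed to 537 to 551 on the LSK FLT3- arrays, 455 to 561 on the WT LMPP arrays and 306 to 323 on the E2A-KO arrays, and 2 of 10 fell between the LMPP genotypes, Egfl7 and Robo4. The defining endothelial genes Cdh5 and Pecam1 were below the array median on all arrays. The part of either list in the Hmga2 result was not tested. The erythroid, B and plasma cell, T cell, and mast cell and basophil lists held 0 calls between the LMPP genotypes (limma; at an unadjusted p under 0.05, 1 erythroid and 3 mast cell and basophil genes higher, and 1 B and plasma cell and 1 T cell gene lower).

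Between the wild-type fractions the Hmga2 probe sets did not go one way. The representative probe set was 0.53 (log2, SE 0.13) higher in WT LMPP than in WT LSK FLT3-, 1422851_at differed by 0.03 (SE 0.17), 1450781_at by -0.71 (SE 0.29) and the dim 1446196_at by 0.94 (SE 0.22). In the fit over genes the difference was 0.20 with the mean of all Hmga2 probe sets and 0.89 with quantile normalization. It was 0.44 without WT LMPP replicate 1, 0.57 without WT LSK FLT3- replicate 1 and 0.48 without replicate 2 of that group. These values are a description without a test, because the WT LMPP arrays also served to choose Hmga2. Against WT LSK FLT3-, E2A-KO LMPP differed by -2.25 (SE 0.13) on the representative probe set, a 4.77-fold lower level, and by -3.65 (SE 0.17) and -3.81 (SE 0.29) on 1422851_at and 1450781_at. The dim 1446196_at went the other way, by 0.41 (SE 0.22). On the 3 probe sets above the array median in wild-type cells, E2A-KO LMPP had the lowest level, and the order of WT LMPP and WT LSK FLT3- differed between probe sets.

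Hmga2, Arid3a and Lin28b lie on chromosome 10 in the GRCm38.p6 assembly, as does Tcf3, the targeted gene. Igf2bp3 lies on chromosome 6 and Sox17 on chromosome 1. The genes around Hmga2 were added after its values had been seen. Of the 5 nearest measured protein-coding genes on each side, 0 of 10 changed between E2A-KO and WT LMPP (limma; 1 of 10, Msrb3, at an unadjusted p under 0.05). The differences of 8 of the 10 were below 0, with a median of -0.27 against -0.02 for all genes. Their differences ran from -0.74 for Msrb3, the methionine sulfoxide reductase gene next to Hmga2 (SE 0.20, adjusted p = 0.129, limma), to 0.31 for Helb, a DNA helicase gene (adjusted p = 0.398). On the other side the neighbouring gene Tmbim4 differed by -0.32 (adjusted p = 0.424) and Irak3, an inhibitor of Toll-like receptor signalling, by -0.32 (adjusted p = 0.378). Over chromosome 10 as a whole, 13 of 780 measured protein-coding genes fell and 2 rose, or 1.92% called against 1.37% of all genes tested.

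**Figure D2:**
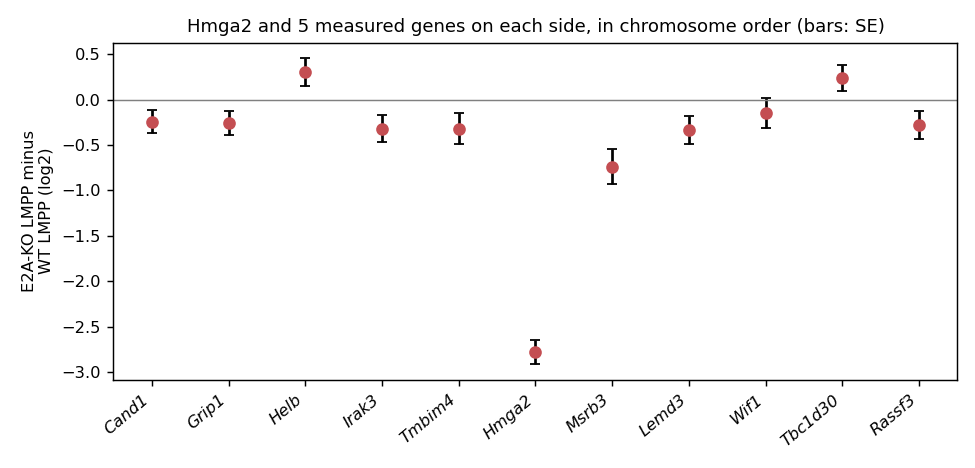
Difference between E2A-KO and WT LMPP (log2, vertical axis) for Hmga2 and the 5 nearest measured protein-coding genes on each side, in chromosome order on the horizontal axis; points are differences of 2-array means and bars the SE from the fit. Hmga2 lies at -2.78, and its 10 neighbours lie between -0.74 and 0.31.

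E2A proteins bind E-boxes, which have the form CANNTG and read the same on both strands in that form. The 250 bases before the RefSeq start of Hmga2 are printed because Hmga2 is the member that differed between the genotypes, and those of Igf2bp3 and Lin28b for comparison. Bases that match CANNTG are in capitals, and all 3 genes lie on the minus strand.
Hmga2, chr10:120476470-120476719: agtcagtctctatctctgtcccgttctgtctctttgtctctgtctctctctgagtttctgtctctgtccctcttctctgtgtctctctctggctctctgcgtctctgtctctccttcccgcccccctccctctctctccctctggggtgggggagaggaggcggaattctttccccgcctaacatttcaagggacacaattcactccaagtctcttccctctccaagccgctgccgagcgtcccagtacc
Igf2bp3, chr6:49214955-49215204: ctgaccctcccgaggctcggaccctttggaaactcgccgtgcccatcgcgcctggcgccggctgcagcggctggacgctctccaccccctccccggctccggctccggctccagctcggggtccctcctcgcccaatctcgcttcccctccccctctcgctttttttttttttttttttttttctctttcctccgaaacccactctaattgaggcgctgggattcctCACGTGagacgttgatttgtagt
Lin28b, chr10:45470202-45470451: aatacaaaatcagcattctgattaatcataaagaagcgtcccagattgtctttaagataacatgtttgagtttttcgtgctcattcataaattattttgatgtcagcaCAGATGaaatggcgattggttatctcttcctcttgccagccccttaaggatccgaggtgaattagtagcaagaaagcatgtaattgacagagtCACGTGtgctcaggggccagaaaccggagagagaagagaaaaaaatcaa
The Hmga2 window held 0 matches to CANNTG, that of Igf2bp3 held 1 and that of Lin28b held 2. Of 32851 RefSeq promoter windows of this length, 66.2% held at least 1 match. CACGTG, the form found before Igf2bp3 and Lin28b, occurred in 6.02% of windows, CAGCTG in 13.0%, and CACCTG or its reverse complement in 17.2%. The last 2 forms occurred in none of the 3 windows. A match is a string of letters and not a shown site, and the window of Hmga2 says nothing of sites elsewhere in the gene.

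Igf2bp3, like Hmga2 a known let-7 target, did not share its pattern. Its brightest probe set, 1433731_at, read 5.60 and 5.48 (log2) in WT LSK FLT3-, 6.40 and 6.25 on the WT LMPP arrays, and 6.69 and 6.66 on the E2A-KO arrays. The groups did not overlap and the order was WT LSK FLT3-, WT LMPP, E2A-KO LMPP. From WT LSK FLT3- to WT LMPP it rose by 0.79 (SE 0.13, adjusted p = 0.00264, limma), or 1.72-fold. E2A-KO LMPP stood 0.35 above WT LMPP (SE 0.13, adjusted p = 0.266), which did not pass, and 1.13 above WT LSK FLT3- (SE 0.13, adjusted p = 0.000444), or 2.19-fold. With the mean of all its probe sets these 2 differences were 0.15 (adjusted p = 0.58) and 0.45 (adjusted p = 0.0125).

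Of the other 5 Igf2bp3 probe sets, 1433732_x_at gave a like stage difference. It read 3.56 and 3.64 on the LSK FLT3- arrays, 4.42 and 4.31 on the WT LMPP arrays and 4.43 and 4.37 on the E2A-KO arrays, 0.76 (SE 0.14) higher in WT LMPP than in WT LSK FLT3- and 0.04 (SE 0.14) higher in E2A-KO than in WT LMPP. The suffix _x_at marks probes that may also bind unrelated transcripts. The remaining 4 were below the array median on all 6 arrays, and their stage differences ran from -0.02 to 0.23. With the mean of all 6 probe sets the stage difference of Igf2bp3 was 0.30 and no longer passed (adjusted p = 0.056, limma).

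Markers of other cells differed between the wild-type fractions beside the differences of Igf2bp3, Sox17 and Hmga2. The counts of calls below stand beside 10.4% higher and 23.7% lower of all genes. The largest were plasma cell genes: the immunoglobulin heavy chain gene Igha averaged 10.05 on the LSK FLT3- arrays and 4.26 on the WT LMPP arrays, 55.4-fold lower, and the joining chain gene Jchain 7.94 and 3.17, 27.3-fold lower. The summed linear level of 7 B and plasma cell markers was 2012 to 2117 in the LSK FLT3- pair of arrays against 1162 to 1187 in the WT LMPP pair, while Ighm and Cd79a rose. Of 7 mast cell and basophil markers 3 fell, Cpa3 from 7.31 to 3.57 (13.4-fold lower), Mcpt8 from 6.22 to 4.10 and Ms4a2 from 4.74 to 3.10, and Tpsab1 rose below the array median. Their sum was 297 to 302 and 77.6 to 86.0, with Mcpt4, Tpsab1 and Fcer1a below the array median on all arrays. Of 6 erythroid markers 3 fell, Klf1 from 7.06 to 5.03, Ermap from 6.67 to 4.79 and Epor from 5.35 to 4.59, and Hba-a1 and Alas2 rose at low levels. The erythroid sum was 296 to 312 and 121 to 123, with Hba-a1 and Slc4a1 below the array median on all arrays. The sum of 6 T cell markers was 106 to 107 and 138 to 141, with Cd3d, Cd3g and Cd28 below the array median on all arrays, and that of the neutrophil markers was higher on the WT LMPP arrays, as given above. Of 10 endothelial markers 2 fell, Esam from 6.94 to 4.47 (5.57-fold lower) and Tie1 from 5.20 to 3.70 (2.82-fold lower), and 1 rose, Plvap from 4.39 to 4.85. The endothelial counts were near the shares of all genes. The part of these markers in the differences of Igf2bp3, Sox17 and Hmga2 was not tested.

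Arid3a, read by 1 probe set, was above the array median everywhere and showed no separation of the groups. It read 5.26 and 5.34 on the LSK FLT3- arrays, 5.14 and 5.31 on the WT LMPP arrays and 5.30 and 4.98 on the E2A-KO arrays, so the arrays of the 3 groups overlapped. The difference between E2A-KO and WT LMPP was -0.09 (SE 0.15, adjusted p = 0.841, limma), and that between the wild-type fractions was -0.07 (SE 0.15, adjusted p = 0.74). Neither sign was stable: the first turned to 0.07 without E2A-KO LMPP replicate 2, and the second to 0.10 with quantile normalization and to 0.01 without WT LMPP replicate 1.

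Sox17 was at the edge of the measurable range. Its brighter probe set, 1421657_a_at, read 3.21 and 3.21 on the LSK FLT3- arrays, 4.03 and 4.10 on the WT LMPP arrays and 4.14 and 4.03 on the E2A-KO arrays. The LSK FLT3- arrays were below the array median and the 4 LMPP arrays close to it, with 3 of the 4 just above. The rise of 0.85 from WT LSK FLT3- to WT LMPP (SE 0.13, adjusted p = 0.0016, limma) passed in each of the 13 alternatives run on it, with 0.52 (adjusted p = 0.0158) as the smallest value, from the mean of both probe sets. E2A-KO and WT LMPP differed by 0.03 (SE 0.13, adjusted p = 0.949), and the sign turned under 4 alternatives. The second probe set, 1429177_x_at, was below the array median on all arrays, between 2.46 and 2.85, and differed by 0.19 (SE 0.17) between the wild-type fractions. The related SoxF genes Sox7 and Sox18 averaged 3.58 to 4.24 over the groups and did not change in any of the 3 comparisons.

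Lin28b was the dimmest of the 5. It read 2.18 and 2.35 on the LSK FLT3- arrays, 2.78 and 2.54 on the WT LMPP arrays and 2.41 and 2.62 on the E2A-KO arrays, below the array median on all 6 arrays. At most 8.93% of the probe sets of an array lay below it. The difference of 0.39 between the wild-type fractions (SE 0.15, adjusted p = 0.0712, limma) passed under 1 alternative, a variance trend (adjusted p = 0.0289), and that of -0.15 between the LMPP genotypes did not pass (SE 0.15, adjusted p = 0.708). Its paralogue Lin28a was also below the array median on all arrays, at 2.86 on the LSK FLT3- arrays, 3.01 on the WT LMPP arrays and 2.94 on the E2A-KO arrays. Neither Lin28 message was therefore measurable above the low range of these arrays.

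**Figure D3:**
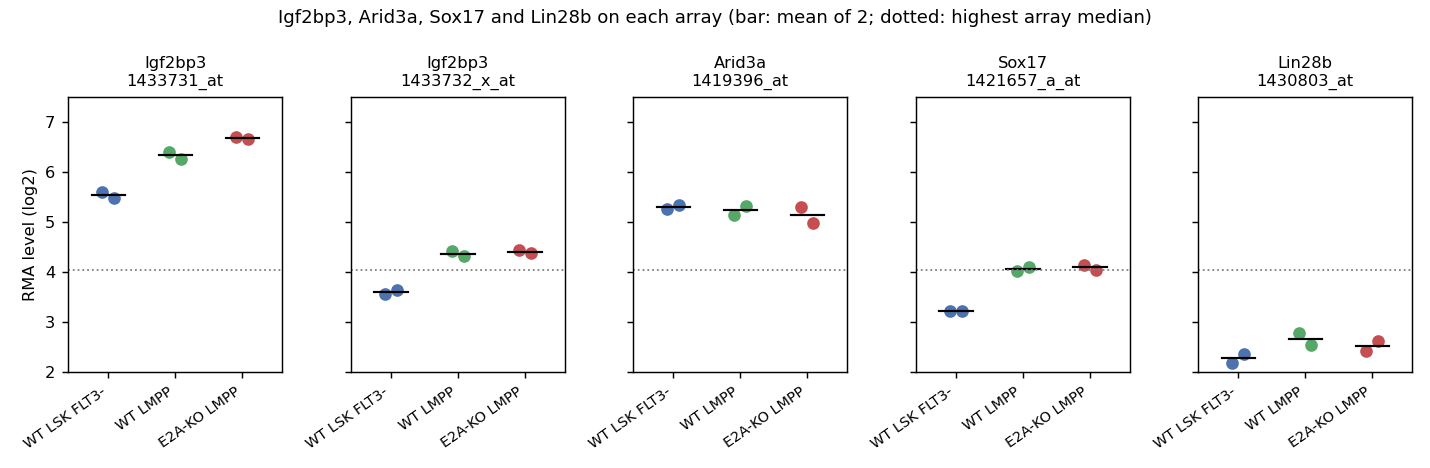
Level (log2 RMA value, vertical axis) of 2 Igf2bp3 probe sets and of the representative probe sets of Arid3a, Sox17 and Lin28b on each array by group; points are arrays, bars the mean of 2 arrays and the dotted line the highest array median, 4.04. Both Igf2bp3 probe sets and Sox17 are lowest on the LSK FLT3- arrays, and Lin28b is below the dotted line on every array.

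Over the 5 members, the fit called 1 lower and 0 higher in E2A-KO against WT LMPP, beside 0.995% lower and 0.379% higher of all 18194 genes tested. The 1 is Hmga2, chosen on this contrast, so nothing is read from the count. Of the other 4 members 0 passed (limma; Igf2bp3 alone at an unadjusted p under 0.05). The median difference of the 5 was -0.09 and that of all genes -0.02. Between WT LMPP and WT LSK FLT3-, 3 of 5 were called higher (Hmga2, Igf2bp3 and Sox17) and 0 lower (limma; Lin28b was also higher at an unadjusted p under 0.05), beside 10.4% higher and 23.7% lower of all genes. Here the median of the members was 0.53 and that of all genes -0.01. Between E2A-KO LMPP and WT LSK FLT3-, Igf2bp3 and Sox17 were called higher and Hmga2 lower, beside 11% and 26.5% of all genes. This comparison shares its arrays with the other two. Hmga2 was chosen on the arrays of both LMPP groups, so its calls here and between the wild-type fractions are no test. Median centring of the arrays moved the median of all genes between the wild-type fractions from -0.01 to -0.12, and the share of calls that were higher was 30.5% as deposited, 17.8% with median centring and 47.4% with quantile normalization. Between E2A-KO LMPP and WT LSK FLT3- the corresponding shares were 29.3%, 14.6% and 44.0%, and the median of all genes moved from -0.02 to -0.16 with median centring.

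The 6 lists of let-7, fetal, HMG and growth factor genes outside the 5 members held 2 calls between the LMPP genotypes. Of all genes, 0.995% were lower and 0.379% higher, so 0 or 1 call in a list of this size is near the background. Of 23 other let-7 targets measured, 1 fell and 0 rose in E2A-KO LMPP (limma; 4 lower and 2 higher at an unadjusted p under 0.05), with a median difference of -0.07. The one was the cyclin D1 gene Ccnd1, from 7.16 ± 0.05 (SD, n = 2) on the WT LMPP arrays to 6.11 ± 0.28 on the E2A-KO arrays (-1.05, SE 0.16, adjusted p = 0.0164). That call ended in 6 of the 14 alternatives, and with 1 array left out the difference ran from -1.25 to -0.85. Leaving out a WT LSK FLT3- array gives the same fit as the 4 LMPP arrays alone, so the alternatives are not all separate checks. Of 17 genes tied to HMGA2 in other systems, 1 fell and 0 rose (2 lower and 0 higher at an unadjusted p under 0.05): Klf4, a reprogramming factor of the zinc finger family, from 5.35 ± 0.13 to 4.23 ± 0.42 (-1.13, SE 0.20, adjusted p = 0.0343). The call of Klf4 ended in 7 of the 14 alternatives. Among these were the fit on the 4 LMPP arrays alone (adjusted p = 0.102, limma) and that with the mean of its probe sets (-0.51, adjusted p = 0.0809). With 1 array left out the difference ran from -1.43 to -0.83. Cdkn2a and Cdkn2b, the cell cycle inhibitor genes that HMGA2 is known to hold down, were below the array median on all arrays.

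The remaining 4 lists held no call between the LMPP genotypes (limma), beside 0.995% lower and 0.379% higher of all genes. With shares this low, an absence of calls says little about lists of this size. In let-7 processing 0 of 19 measured genes passed (1 lower and 0 higher at an unadjusted p under 0.05), and the largest difference was -0.46 for the Argonaute gene Ago4 (adjusted p = 0.388). In fetal hematopoiesis 0 of 16 passed (0 at an unadjusted p under 0.05), and the largest was -0.34 for the endothelial cadherin gene Cdh5 (adjusted p = 0.483). Among other HMG box and HMG nucleosome protein genes 0 of 9 passed (0 unadjusted), with 0.32 for Hmgn3 (adjusted p = 0.434). In insulin-like growth factor signalling 0 of 16 passed (0 unadjusted), with 0.39 for the binding protein gene Igfbp7 (adjusted p = 0.355). The list medians lay between -0.07 and 0.08, near the -0.02 of all genes. Single arrays set much of the size of these differences: without WT LMPP replicates 1 and 2, that of Cdh5 was -0.02 and -0.67, that of Hmgn3 0.11 and 0.53, and that of Igfbp7 0.15 and 0.63. Averaged over all their probe sets, Cdh5 was at -0.11 and Igfbp7 at 0.14.

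The same lists held more calls between the wild-type fractions, where 10.4% of all genes rose and 23.7% fell. These shares depended on brightness. Without the dimmest 40% of genes, 1142 of 10916 rose and 4453 fell, with a median of -0.29 against -0.01 for all genes. Fetal hematopoiesis genes rose in 4 of 16 cases and fell in 0 (limma, with 4 higher and 0 lower at an unadjusted p under 0.05), with a median of 0.25. Of the 16, 7 were below the array median on all 6 arrays. Igf2bp1, the third paralogue of the RNA-binding family and a let-7 target, rose from 4.76 ± 0.06 on the LSK FLT3- arrays to 5.90 ± 0.15 on the WT LMPP arrays (1.13, SE 0.14, adjusted p = 0.000624; 0.34, adjusted p = 0.0485, with the mean of its probe sets), in the same direction as Igf2bp3. The probe set that represented Igf2bp1 carried the suffix _x_at, so its probes may also bind unrelated transcripts. Its rise is therefore not read as a check on that of Igf2bp3. Dlk1, an imprinted Notch-family ligand, rose by 0.94, the imprinted hydrolase gene Mest by 0.59 and Ezh2, the Polycomb methyltransferase, by 0.53. Dlk1 averaged 3.77 on the LSK FLT3- arrays and 4.70 on the WT LMPP arrays, and Mest 3.67 and 4.26. Both thus started below the array median, in the low range. Without WT LSK FLT3- replicate 1 or 2 the calls of Dlk1 (adjusted p = 0.108 and 0.0568), Mest (0.134 and 0.0536) and Ezh2 (0.0826 and 0.103) ended, as did those of Dlk1 without WT LMPP replicate 2 (0.0595) and of Mest without WT LMPP replicate 1 (0.0557). Dlk1 also did not pass with the mean of its probe sets (0.49, adjusted p = 0.0633), nor Mest with quantile normalization (adjusted p = 0.0524).

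Of 23 other let-7 targets, 3 rose and 8 fell from WT LSK FLT3- to WT LMPP, with a median of -0.24, beside 10.4% higher and 23.7% lower of all genes. Mycn, a proto-oncogene of stem cells, fell from 10.35 ± 0.07 to 8.48 ± 0.19 (-1.88, SE 0.14, adjusted p = 5.88e-05; -0.69 with the mean of its probe sets), and Gatm, the first enzyme of creatine synthesis, fell by 0.99 (SE 0.17, adjusted p = 0.00313; -0.59 with quantile normalization). E2f5, a cell cycle transcription factor, was 1.63 higher (SE 0.15, adjusted p = 0.000161), and with the mean of its probe sets the difference was 0.05 (adjusted p = 0.83). Targets of let-7 thus differed in both directions. Among the members known as targets, Igf2bp3 was called higher here and Arid3a was not called, and the Hmga2 probe sets did not go one way.

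Let-7 processing genes rose in 0 and fell in 6 of 19 cases (limma; 1 higher and 7 lower at an unadjusted p under 0.05), with a median of -0.14. Of all genes, 10.4% rose and 23.7% fell. Without the dimmest 40% of genes, 4453 of 10916 fell, with a median of -0.29, and 2 of the 19 were below the array median on all arrays. The list did not fall more than brighter genes in general. Ago4 fell by 1.09 (adjusted p = 0.00698), the RNase gene Dicer1 by 0.69 (adjusted p = 0.00648), Tut4, which tails let-7 precursors bound by LIN28, by 0.62 (adjusted p = 0.0199), and Prkra, a Dicer partner, by 0.60 (adjusted p = 0.00703). All 4 calls ended with quantile normalization (adjusted p 0.0607 to 0.303), and with the mean of its probe sets Tut4 turned to 0.09 (adjusted p = 0.564) and Prkra was at -0.06 (adjusted p = 0.674). Ago4 read 7.24 and 6.47 on the LSK FLT3- arrays, and its difference was -0.71 without replicate 1 of that group and -1.48 without replicate 2. Dicer1 was at -0.41 with the mean of its probe sets. Without WT LSK FLT3- replicate 1 the calls of Dicer1 (0.0729), Tut4 (0.174) and Prkra (0.0681) ended, as did that of Prkra without WT LSK FLT3- replicate 2 (0.0615) and of Tut4 without WT LMPP replicate 1 (0.0725).

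The counts of the next 3 lists stand beside 10.4% higher and 23.7% lower of all genes. Of the 9 other HMG genes 2 fell between the wild-type fractions and 0 rose (limma; 3 lower and 1 higher at an unadjusted p under 0.05): Hmgn5 by 0.67 (adjusted p = 0.0121) and Hmgb3 by 0.56 (adjusted p = 0.0243). Both calls ended without WT LMPP replicate 1 (0.0579 and 0.0832), without WT LSK FLT3- replicate 1 (0.079 and 0.0513) or 2 (0.0898 and 0.199), and with quantile normalization (0.0825 and 0.3). Of the 17 genes tied to HMGA2, 5 rose and 3 fell, with a median of 0.23. Besides Igf2bp1 these included Klf4 (0.89, adjusted p = 0.0106; 0.0991 without WT LSK FLT3- replicate 2, and a difference of 0.54 with the mean of its probe sets), Stat3, a cytokine-activated factor (-0.75, adjusted p = 0.00281; -0.26, adjusted p = 0.0946, with the mean of its probe sets and -0.42 with quantile normalization), and Snai2, a repressor of the Snail family at 2.98 and 3.64, below the array median (0.66, adjusted p = 0.0104; 0.0885 and 0.0648 without WT LSK FLT3- replicates 1 and 2, 0.0506 with quantile normalization and 0.0505 with the mean of its probe sets). In insulin-like growth factor signalling 2 rose and 3 fell of 16, with a median of 0.20. Grb10, an imprinted adaptor that dampens insulin-like growth factor receptors, fell from 8.82 ± 0.02 to 3.93 ± 0.06, below the array median (-4.89, SE 0.15, adjusted p = 1.08e-06; -1.53, adjusted p = 9.73e-05, with the mean of its probe sets). Igfbp5, a secreted binding protein gene, rose by 1.01 (adjusted p = 0.00178; 0.36 with the mean of its probe sets), Igf2r, which clears IGF2, rose by 0.89 (adjusted p = 0.00617; 0.0659 without WT LSK FLT3- replicate 2), and the kinase gene Akt2 fell by 0.64 (adjusted p = 0.00595; 0.0711 without WT LSK FLT3- replicate 2 and 0.223 with quantile normalization).

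**Figure D4:**
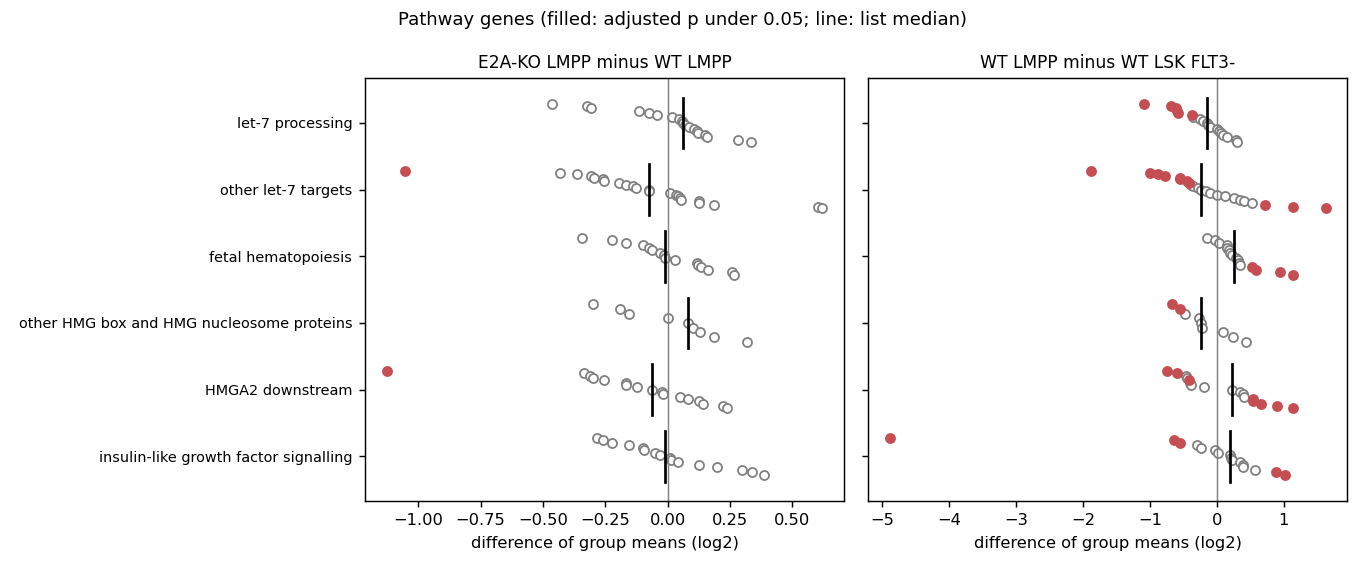
Difference of group means (log2, horizontal axes; the 2 panels have different scales) for each measured gene of 6 lists, in E2A-KO against WT LMPP (left) and WT LMPP against WT LSK FLT3- (right); filled points have an adjusted p under 0.05 and black lines are list medians. On the left 2 points are filled, Ccnd1 and Klf4, and on the right the lowest point is Grb10 at -4.89.

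E2A-KO LMPP were also set against the same WT LSK FLT3- arrays. The limit of the _x_at probe set of Igf2bp1 holds here too. Igf2bp1 stood 0.97 above WT LSK FLT3- (SE 0.14, adjusted p = 0.0011, limma; 0.27, adjusted p = 0.0887, with the mean of its probe sets), Mycn differed by -2.17 (adjusted p = 2.82e-05; -0.92 with the mean of its probe sets) and Grb10 by -4.59 (adjusted p = 1.27e-06; -1.28 with that mean). Among the genes tied to HMGA2, 5 of 17 were higher and 4 lower, where 11% of all genes were higher and 26.5% lower. The 4 included the blood stem cell factor Runx1 (-0.91, adjusted p = 0.00503; 0.0598 without WT LSK FLT3- replicate 1, 0.0682 with quantile normalization and 0.167 with the mean of its probe sets) and the retinoblastoma gene Rb1 (-0.70, adjusted p = 0.0076; 0.0815 without WT LSK FLT3- replicate 1 and 0.285 with quantile normalization, and a difference of -0.44 with the mean of its probe sets).

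The genes most like Hmga2 were ranked by Pearson's r of the log2 levels over the 6 arrays, among 1746 other genes whose highest and lowest group means differed by at least 1. Because the arrays form 3 groups of 2, such an r mostly reflects the group means, and it is a description. The 8 highest were Entpd1, an ectonucleotidase (r = 0.998), the neutrophil granule gene Ngp (0.995), Myl10 (0.993), the neutrophil lipocalin gene Lcn2 (0.991), Gbp6, an interferon-induced GTPase (0.987), S100a9, a calcium-binding protein of neutrophils (0.983), the growth factor receptor gene Pdgfrb (0.975) and Gimap7, a GTPase of lymphocytes (0.974). Entpd1 averaged 4.92 on the LSK FLT3- arrays, 5.13 on the WT LMPP arrays and 3.91 on the E2A-KO arrays, a narrower range than that of Hmga2. Lcn2 averaged 5.49, 6.23 and 3.40 and Ngp 9.35, 10.31 and 6.73. Of the 8, 3 belong to the neutrophil marker list, and none is a member or on a pathway list.

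**Figure D5:**
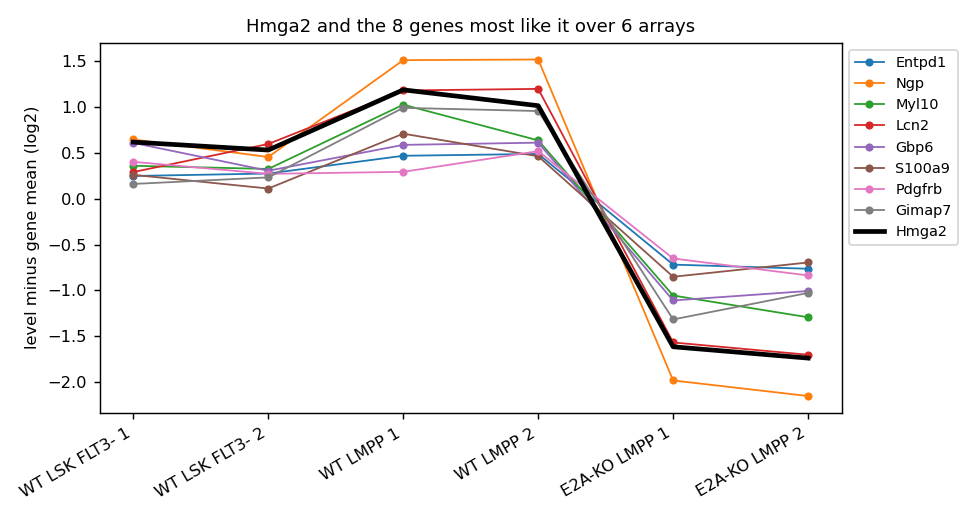
Level minus the gene's own mean over the 6 arrays (log2, vertical axis) for Hmga2 (thick black line) and the 8 genes with the highest Pearson's r with it, by array on the horizontal axis; lines join arrays of unordered groups only to guide the eye. All 9 genes are lowest on the 2 E2A-KO LMPP arrays, and Ngp spans a wider range than Hmga2.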

How the data were processed

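RNA from sorted cells was read on 6 Affymetrix 3′ expression arrays, 1 sample per array, in 3 groups taken from the sample titles. A free-text label that calls all samples WT LMPP was set aside. The authors deposited 1 linear intensity per probe set and array. The submitters' processing notes name RMA without a version. The log2 of each value was taken here. No source used here says if the 6 arrays went through RMA together. Detection calls were not used, and precision is limited by the number of arrays.

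The platform annotation gave 1 symbol to 34958 of the 45101 probe sets, several to 932 and none to 9211. Each of 18194 genes was represented by its single-symbol probe set with the highest mean. limma 3.58.1 in R 4.3.3 fitted 1 mean per group on all 6 arrays (3 residual and 5.8 prior degrees of freedom), with two-sided p-values adjusted by Benjamini and Hochberg over all genes and a threshold of 0.05. A second fit on all probe sets gave the differences and SEs of the members' other probe sets. SDs are between 2 arrays. The fit was tested on simulated data. Plots used matplotlib 3.10.9 (Python 3.11.15).

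The members and gene lists were chosen with earlier results of these data known. Named are all members, up to 4 genes per list and comparison with the largest difference past the threshold (the largest where none passed; only some of those for the E2A-KO arrays against LSK FLT3- are written out), and the 8 genes most like Hmga2. Alternatives were a replicate block, the 4 arrays of a comparison alone, quantile normalization, median centring, the mean of all probe sets, all probe sets as the unit, no dimmest 40% of genes, a variance trend and leaving out each array. Leaving out an array of the group outside a comparison gives the same fit as the 4 arrays of that comparison alone. Sequences are from RefSeq tables of GRCm38.p6, and array annotation carries no build, so no other coordinates are given.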

Additional observations from a re-analysis of the deposited data

How the results depend on the processing

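The difference of Hmga2 between E2A-KO and WT LMPP was -2.87 to -2.52 over the 14 alternatives. Several of them, such as the replicate block, act on its SE alone and leave the difference at -2.78. Hmga2 was chosen on this contrast, so this stability and its calls in any comparison describe the fit and support nothing. Between WT LMPP and WT LSK FLT3- the members called went from 3 to 1 with the mean of all probe sets and to 4 with a variance trend, and leaving out 1 array gave 2 or 3. Between E2A-KO LMPP and WT LSK FLT3- leaving out 1 array left the 3 calls. The filter on the dimmest 40% of genes removed Lin28b and Sox17, and 2 of the 3 members left were then called in each comparison with WT LSK FLT3-. With the replicate block the members called were 1, 3 and 3 in the 3 comparisons, and the genes called 200, 5914 and 6535. The numbers are not said to pair samples, and deviations of same-numbered arrays correlated over genes with r = -0.04 to 0.02.

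The genes called over the whole table in E2A-KO against WT LMPP went from 250 to 89 on the 4 arrays alone, 445 with all probe sets as the unit, 548 with a variance trend, and 89 to 164 with 1 array left out. Those between the wild-type fractions went from 6198 to 3496 with quantile normalization, 10648 with all probe sets and 2370 to 6410 with 1 array left out (2370 and 2449 without WT LSK FLT3- replicates 1 and 2). Those between E2A-KO LMPP and WT LSK FLT3- went from 6822 to 3617, 12853 and 2944 to 7515. With the mean of all probe sets, Tut4 turned from -0.62 to 0.090 between the wild-type fractions and E2f5 from 1.64 to -0.032 between E2A-KO LMPP and WT LSK FLT3-. The cause of these shifts was not tested.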
